A study of Paxillus involutus with 25 samples.

Results

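RNA sequencing was used to compare mycelium of Paxillus involutus grown on K-depleted agar with flakes of K-vermiculite and mycelium grown on the same agar without a mineral. The comparison was chosen by the labels: it holds 10 of the 25 libraries of the series, 5 cultures with K-vermiculite and 5 on K-depleted medium alone. Of 18032 gene IDs in the deposited table, 12744 passed a filter on low counts and were tested. All cultures were strain ATCC 200175, grown in the dark at 25 °C for 21 days on a cellophane membrane over MMN agar, a medium used for mycorrhizal fungi. K-depleted agar was made without KH2PO4, a salt that supplies both potassium and phosphate, and no replacement salt is named in the labels, so both groups grew without that source of phosphate too. The flakes, about 2 cm2 in area, lay in the middle of the dish with the inoculum plugs around them. The remaining 15 libraries were cultures with muscovite, with phlogopite or on complete medium, 5 of each, and they entered the filter on low counts and the fit of every test here, besides being set beside single genes. The cultures grew without a host tree, and per the labels the whole mycelium was taken from the membrane, so hyphae on the mineral and hyphae away from it were measured together.

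Potassium is the main inorganic cation of fungal cytoplasm, where it serves charge balance, turgor and enzyme activity, and hyphae take it up through channels and transporters of the plasma membrane. Ectomycorrhizal fungi such as P. involutus grow as a sheath around tree roots and pass mineral nutrients on to the tree. Vermiculite is a mica-like sheet silicate, and in K-vermiculite potassium ions sit between the layers. Neither the count table nor the reference gives a product for its gene IDs: only nps2 and pks3 carry a symbol, so the other genes are given by ID and nothing is said of their roles.

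The K-vermiculite libraries held 26.1 to 41.2 M counts (1 M is 1000000), and the K-depleted libraries held 25.8 to 33.3 M. Levels are given as CPM, the counts of a gene per 1000000 counts of its library after TMM scaling. Replicates were more alike with K-vermiculite. The biological coefficient of variation, estimated within 1 group at a time, was 8.38% with K-vermiculite and 13.6% on K-depleted medium. K-depleted replicate 4 stood farthest from its group, with a median Pearson correlation of log2 CPM to its own replicates of 0.988, where the other 9 libraries of both groups had 0.991 to 0.995. Without it the K-depleted coefficient was 10.4%, still above the highest value with K-vermiculite when 1 library was left out, 9.08%. No test of this difference in spread was made.

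A large part of the transcriptome differed between cultures with K-vermiculite and cultures on K-depleted medium alone, mostly by small amounts. In edgeR's quasi-likelihood test over all 12744 genes, 5893 genes (46.2%) were called at a Benjamini-Hochberg adjusted p below 0.05, 2870 higher with K-vermiculite (22.5%) and 3023 lower (23.7%). Because the libraries are bulk RNA, fewer cells of a type and less RNA per cell cannot be told apart in these values. The median log2 fold change of the called genes was 0.40 for those that were higher and -0.38 for those that were lower. Among the called genes, 1054 higher and 1110 lower ones changed less than 1.25-fold by their fitted fold change, and another 1063 higher and 1141 lower ones changed 1.25 to 1.5-fold.

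Larger changes were fewer and lay more often on the lower side. At least 2-fold changes were fitted for 468 called genes (3.67% of those tested), 207 higher (1.62%) and 261 lower (2.05%). In the class from 4 to 8-fold there were 14 higher and 29 lower called genes, and beyond 8-fold 1 higher and 6 lower. When each gene was tested against a change of 2-fold rather than against no change (edgeR glmTreat, adjusted p below 0.05), 101 genes passed (0.793%), 29 higher (0.228%) and 72 lower (0.565%). The count was 64 with limma-voom, 14 higher and 50 lower. Without K-vermiculite replicate 5, 15 higher and 59 lower genes passed, the fewest higher genes when 1 library was left out. Both sides also shrank without some other libraries. The counts were 20 higher and 59 lower without K-depleted replicate 1, and 22 and 54 without K-vermiculite replicate 4. Of all tested genes, 4172 (32.7%) had groups of 5 values that did not overlap, and of the 5893 called genes 4006 (68.0%) had none.

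The wide changes were found at every level of expression. Genes averaging under 1 CPM over the 10 libraries were called in 22.0% of cases, and 39 were at least 2-fold higher and 24 at least 2-fold lower, a share of 8.73%. From 1 to 5 CPM, 48 genes were at least 2-fold higher and 52 lower, and from 5 to 20 CPM 56 higher and 52 lower. Between 20 and 100 CPM, 50.6% of genes were called, but at least 2-fold changes made up 2.10%, with 36 genes higher and 67 lower. At 100 to 1000 CPM, 25 genes were at least 2-fold higher and 61 lower. The excess of lower genes thus lay mainly between 20 and 1000 CPM. Above 1000 CPM, 17 of 77 genes were called higher and 30 lower, and 3 of them were at least 2-fold higher and 5 at least 2-fold lower. CPM is not divided by gene length, so these classes describe counts and not molecules per gene.

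**Figure D1:**
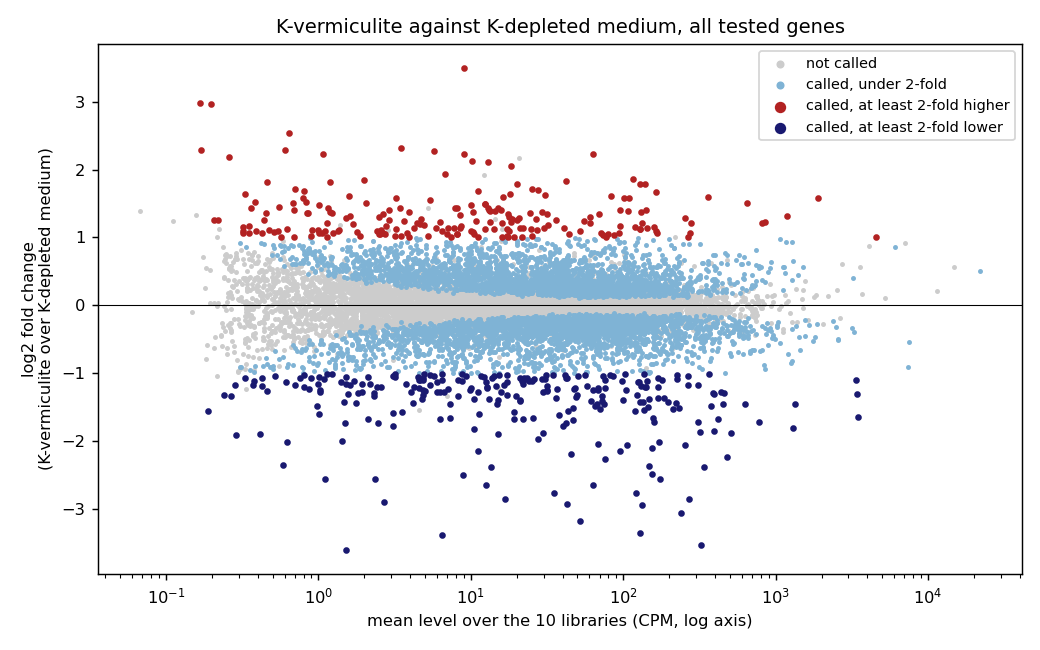
Log2 fold change of each tested gene (vertical axis, K-vermiculite over K-depleted medium) against its mean level over the 10 libraries in CPM (horizontal log axis); each point is a gene. The 207 red and 261 dark points are the called genes at least 2-fold higher and lower with K-vermiculite, and points beyond -2 are more numerous than points beyond 2.

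As a share of all counts, the 2-fold genes differed between the groups in every culture. The 261 lower genes held 1.79%, 1.61%, 1.84%, 1.56% and 1.52% of counts in the 5 K-vermiculite libraries, against 4.41%, 4.16%, 4.67%, 5.59% and 4.25% on K-depleted medium. K-depleted replicate 4 had the highest share. The 207 higher genes held 2.39%, 2.24%, 2.09%, 2.35% and 2.38% with K-vermiculite, against 1.11%, 0.954%, 0.948%, 0.733% and 1.00% on K-depleted medium. These genes were chosen on the same 10 libraries, so the gap between the groups is a description and was not tested.

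Values in the other 15 libraries are a description too, since these libraries entered the fit behind the calls and the K-vermiculite libraries were used to choose the genes. The lower set held 3.12% to 4.19% of counts with muscovite, 3.80% to 4.56% with phlogopite and 1.14% to 1.20% on complete medium. K-vermiculite cultures, at 1.52% to 1.84%, lay below all cultures with the other minerals and above all on complete medium. For the higher set the shares were 1.20% to 1.39% with muscovite, 1.11% to 1.24% with phlogopite and 2.09% to 2.70% on complete medium, whose range took in that with K-vermiculite.

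**Figure D2:**
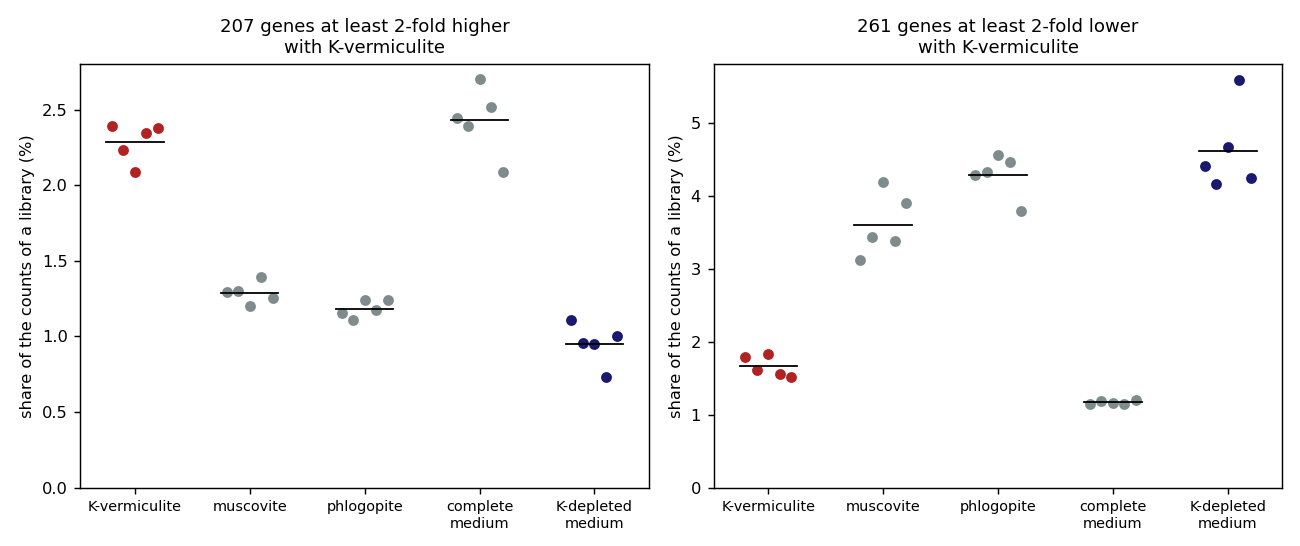
Share of a library's counts (vertical axis, percent) held by the genes called at least 2-fold higher (left) and lower (right) with K-vermiculite than on K-depleted medium; each point is 1 culture and the line is the mean of 5. The K-vermiculite points of the right panel, 1.52% to 1.84%, lie between those on complete medium and those of the other 3 groups.

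Individual genes were named by a rule: a called gene with a mean of at least 5 CPM over the 10 libraries and groups that did not overlap, so the absence of overlap in the genes below is set by the rule. Among genes that met this rule, the 8 with the lowest log2 fold change were all 7.21-fold to 11.5-fold lower with K-vermiculite. PAXINDRAFT_167028 had 61.2, 48.4, 60.8, 38.0 and 51.1 CPM in the 5 K-vermiculite cultures, against 565, 525, 656, 834 and 406 CPM on K-depleted medium. It fell 11.5-fold (edgeR log2 fold change -3.52 with SE 0.24 and adjusted p 1.51e-10), with K-depleted replicate 4 the highest of its group and replicate 5 the lowest. PAXINDRAFT_96838 had 35.2, 18.0, 33.8, 17.6 and 10.1 CPM with K-vermiculite, against 232, 142, 291, 250.0 and 252 CPM on K-depleted medium. Its fall was 10.2-fold (edgeR log2 fold change -3.35 with SE 0.31 and adjusted p 3.73e-08), and K-vermiculite replicates 1 and 3 lay above the other 3. PAXINDRAFT_175161 had 12.4, 11.8, 12.1, 8.46 and 7.97 CPM with K-vermiculite, against 88.0, 76.6, 81.7, 123 and 101 CPM on K-depleted medium (edgeR log2 fold change -3.16 with SE 0.21 and adjusted p 1.87e-10), and replicates 4 and 5 were the lowest with K-vermiculite. PAXINDRAFT_169338 had 75.8, 54.3, 55.5, 39.4 and 31.9 CPM with K-vermiculite, against 362, 386, 392, 645 and 342 CPM on K-depleted medium (edgeR log2 fold change -3.05 with SE 0.27 and adjusted p 1.83e-08).

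The other 4 genes of this group also fell in every K-vermiculite culture. PAXINDRAFT_56670 had 49.2, 32.5, 45.2, 17.6 and 10.4 CPM with K-vermiculite, against 198, 267, 279.6, 327 and 112 CPM on K-depleted medium (edgeR log2 fold change -2.94 with SE 0.44 and adjusted p 1.55e-05). It spread widely within the K-vermiculite cultures, with replicates 1 and 3 high and replicate 5 low. PAXINDRAFT_12839 had 11.6, 8.43, 13.8, 8.88 and 7.19 CPM with K-vermiculite, against 63.4, 45.7, 66.8, 122 and 77.1 CPM on K-depleted medium (edgeR log2 fold change -2.91 with SE 0.24 and adjusted p 5.00e-09), and PAXINDRAFT_11534 had 5.13, 3.85, 4.22, 3.39 and 3.76 CPM with K-vermiculite, against 34.4, 21.8, 33.5, 31.2 and 26.1 CPM on K-depleted medium (edgeR log2 fold change -2.85 with SE 0.20 and adjusted p 1.25e-10). PAXINDRAFT_97712 had 79.0, 63.7, 67.2, 48.5 and 72.7 CPM with K-vermiculite, against 499.7, 418, 438, 625 and 408 CPM on K-depleted medium (edgeR log2 fold change -2.85 with SE 0.17 and adjusted p 1.25e-11). K-depleted replicate 4 was the highest of its group in 6 of the 8 genes, all but PAXINDRAFT_96838 and PAXINDRAFT_11534. Without that library the 8 log2 fold changes ran from -3.37 to -2.67, and all 8 remained called.

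**Figure D3:**
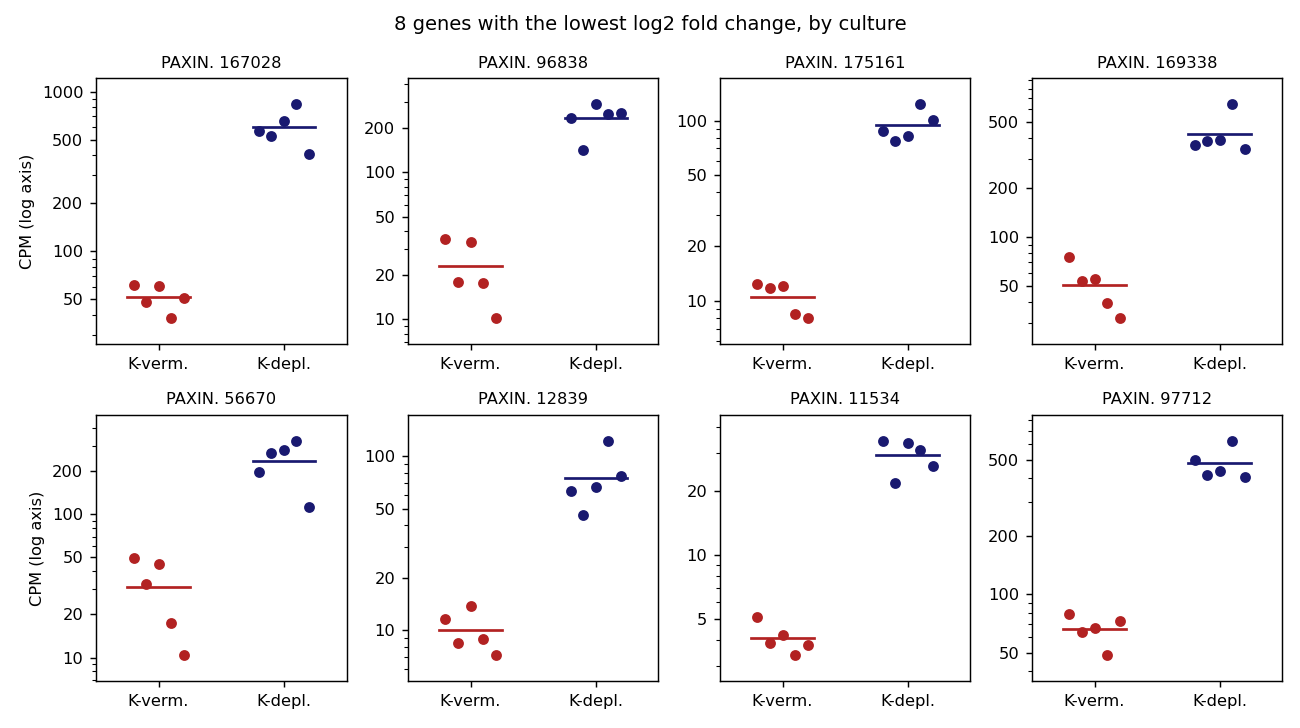
Level in CPM (vertical log axes, each with its own range) of the 8 genes with the lowest log2 fold change among those that met the naming rule. Each point is 1 culture, K-vermiculite left and K-depleted medium right, in replicate order, and the line is the mean of 5. In each panel the K-vermiculite cultures lie below all K-depleted cultures, by 7.21-fold to 11.5-fold in the fitted values.

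Among genes that met the naming rule, the 8 with the highest log2 fold change rose 3.63-fold to 11.2-fold. PAXINDRAFT_158079 had 14.1, 12.7, 17.7, 9.26 and 28.6 CPM with K-vermiculite, against 0.782, 1.01, 1.13, 2.13 and 2.19 CPM on K-depleted medium. It rose 11.2-fold (edgeR log2 fold change 3.49 with SE 0.35 and adjusted p 6.60e-08), and K-vermiculite replicate 5 was the highest. PAXINDRAFT_6572 had 79.9, 117, 113, 124 and 92.4 CPM with K-vermiculite, against 19.7, 32.2, 25.5, 21.1 and 13.4 CPM on K-depleted medium (edgeR log2 fold change 2.23 with SE 0.23 and adjusted p 1.09e-07). PAXINDRAFT_104146 had 13.8, 16.9, 15.5, 18.3 and 18.2 CPM with K-vermiculite, against 4.45, 4.84, 3.77, 2.96 and 3.08 CPM on K-depleted medium (edgeR log2 fold change 2.12 with SE 0.17 and adjusted p 6.25e-10), with little spread in either group. PAXINDRAFT_91826 had 17.0, 19.5, 18.9, 21.7 and 28.8 CPM with K-vermiculite, against 4.41, 3.47, 4.57, 5.70 and 6.32 CPM on K-depleted medium (edgeR log2 fold change 2.11 with SE 0.30 and adjusted p 7.40e-06). For this gene replicate 5 was the highest in both groups.

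PAXINDRAFT_172063 had 20.1, 26.7, 35.1, 27.2 and 39.3 CPM with K-vermiculite, against 10.6, 7.02, 7.46, 4.47 and 6.17 CPM on K-depleted medium (edgeR log2 fold change 2.06 with SE 0.21 and adjusted p 6.66e-08). PAXINDRAFT_142038 had 10.1, 10.5, 10.8, 8.97 and 13.3 CPM with K-vermiculite, against 2.84, 2.93, 2.71, 2.63 and 2.93 CPM on K-depleted medium (edgeR log2 fold change 1.94 with SE 0.15 and adjusted p 1.10e-10), and its K-depleted values were the most alike of the 8 genes relative to their mean. PAXINDRAFT_77684, the gene with the most counts of the 8, had 126, 164, 169.6, 232 and 211 CPM with K-vermiculite, against 46.8, 50.2, 46.3, 44.8 and 60.5 CPM on K-depleted medium (edgeR log2 fold change 1.86 with SE 0.18 and adjusted p 3.44e-08). The remaining gene, PAXINDRAFT_180362, had 8.30, 7.07, 6.71, 10.2 and 15.8 CPM with K-vermiculite, against 0.676, 0.624, 2.19, 0.216 and 5.93 CPM on K-depleted medium (edgeR log2 fold change 2.27 with SE 0.88 and adjusted p 0.0394). Its K-depleted values ranged widely, with replicate 5 near the lowest K-vermiculite value. The call was lost, at adjusted p values of 0.0501 to 0.0902, when any of K-depleted replicates 1 to 4 or K-vermiculite replicates 1, 4 or 5 was left out, and without K-depleted replicate 5 the log2 fold change was 3.38 (edgeR adjusted p 0.0105).

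**Figure D4:**
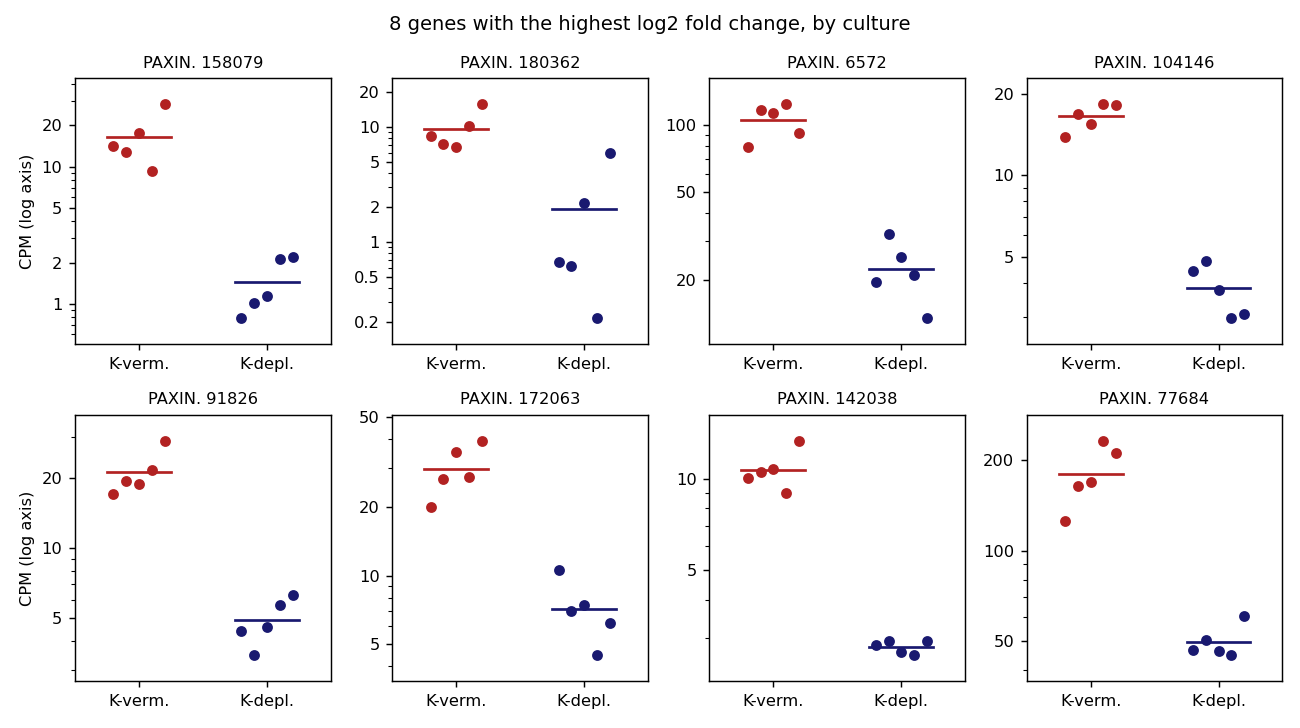
Level in CPM (vertical log axes, each with its own range) of the 8 genes with the highest log2 fold change among those that met the naming rule. Each point is 1 culture, K-vermiculite left and K-depleted medium right, in replicate order, and the line is the mean of 5. K-depleted values of PAXINDRAFT_180362 reach from 0.216 to 5.93 CPM, while those of PAXINDRAFT_142038 stay between 2.63 and 2.93 CPM.

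Other genes changed by smaller factors but took up or gave back more of the library. The largest gain in mean CPM among the genes open to naming was that of PAXINDRAFT_68958, with 25377, 26150.1, 30466, 25594 and 22129 CPM in K-vermiculite cultures, against 19299.6, 19863, 17791, 16738 and 17296 CPM on K-depleted medium (edgeR log2 fold change 0.51 with SE 0.14 and adjusted p 0.00368). It rose 1.43-fold and held 2.60% of all counts with K-vermiculite, against 1.80% on K-depleted medium. PAXINDRAFT_152508 rose 1.81-fold, with 6956, 7278, 8595, 8439.5 and 7945 CPM in K-vermiculite cultures, against 3508, 3850.0, 5053, 4233 and 4967 CPM on K-depleted medium (edgeR log2 fold change 0.86 with SE 0.12 and adjusted p 1.35e-06). PAXINDRAFT_103583 rose 2.98-fold, averaging 2844 ± 759.8 CPM with K-vermiculite and 954 ± 345 CPM on K-depleted medium (SD, n = 5 each; edgeR log2 fold change 1.57 with SE 0.19 and adjusted p 4.97e-07). K-depleted replicate 5, at 1565 CPM, stood above the other 4 at 737 to 858 CPM. PAXINDRAFT_69019 rose 2.49-fold, averaging 1689 ± 319 CPM with K-vermiculite and 678 ± 70.6 CPM on K-depleted medium (SD, n = 5 each; edgeR log2 fold change 1.32 with SE 0.15 and adjusted p 7.60e-08).

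Among the losses, PAXINDRAFT_169161 gave up the most counts, with 5647, 4751, 8166, 4223 and 2976 CPM in K-vermiculite cultures, against 9704, 8989.6, 9039, 8320.2 and 12263 CPM on K-depleted medium (edgeR log2 fold change -0.91 with SE 0.19 and adjusted p 0.000357). K-vermiculite replicate 3 came close to the lowest K-depleted value and replicate 5 was the lowest. PAXINDRAFT_103396 fell 3.12-fold, with 2067, 1423, 2272, 1671 and 939 CPM in K-vermiculite cultures, against 5133, 4321, 5399, 5993 and 5251 CPM on K-depleted medium (edgeR log2 fold change -1.64 with SE 0.20 and adjusted p 6.30e-07). PAXINDRAFT_165289 fell 2.48-fold with little spread, averaging 1955 ± 127 CPM with K-vermiculite and 4843 ± 424 CPM on K-depleted medium (SD, n = 5 each; edgeR log2 fold change -1.31 with SE 0.09 and adjusted p 2.07e-11). PAXINDRAFT_65274 fell 1.45-fold, averaging 6123 ± 419 CPM with K-vermiculite and 8904 ± 391 CPM on K-depleted medium (SD, n = 5 each; edgeR log2 fold change -0.54 with SE 0.08 and adjusted p 4.85e-06).

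Set beside complete medium, these genes fell into different positions. Because K-depleted agar was made without KH2PO4, potassium and this source of phosphate cannot be told apart in comparisons with complete medium. Of the 26 named genes, 23 were called in the same direction against K-depleted medium, muscovite and phlogopite. Against complete medium 11 of these were called in the opposite direction, 6 in the same direction and 6 were not called. The comparison of K-vermiculite with complete medium called 6753 of the tested genes (53%). Those with K-depleted medium, muscovite and phlogopite called 46.2%, 39.1% and 50.4%. Shares of all tested genes called in the same combinations were not computed. The K-vermiculite libraries, on which all named genes but nps2 and pks3 were chosen, enter each of these comparisons. The counts of named genes therefore only describe them. PAXINDRAFT_6572, PAXINDRAFT_104146 and PAXINDRAFT_91826 rose to levels that were not called different from complete medium, with log2 fold changes of 0.39 (SE of 0.22, edgeR adjusted p 0.135), 0.29 (SE of 0.16, edgeR adjusted p 0.131) and 0.04 (SE of 0.27, edgeR adjusted p 0.913). PAXINDRAFT_175161 and PAXINDRAFT_167028 fell to levels that likewise were not called different, with log2 fold changes of -0.11 (SE of 0.21, edgeR adjusted p 0.687) and 0.26 (SE of 0.22, edgeR adjusted p 0.332). For PAXINDRAFT_103396 the level with K-vermiculite was higher than on complete medium, 1674 ± 528 against 113 ± 34.7 CPM (SD, n = 5 each; log2 fold change 3.89 (SE of 0.22, edgeR adjusted p 1.25e-12)). PAXINDRAFT_169161 likewise stood at 5153 ± 1942 CPM with K-vermiculite, against 519 ± 74.8 CPM on complete medium (SD, n = 5 each; log2 fold change 3.31 (SE of 0.21, edgeR adjusted p 1.94e-12)). PAXINDRAFT_12839, at 9.98 ± 2.68 against 1.66 ± 0.383 CPM, was also higher with K-vermiculite (SD, n = 5 each; log2 fold change 2.58 (SE of 0.30, edgeR adjusted p 2.99e-07)).

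Of the 26 named genes, 6 were called in the same direction against each of the other 4 groups, 5 higher and 1 lower with K-vermiculite. The share of all tested genes called in this way was not computed. All named genes but nps2 and pks3 were chosen on the K-vermiculite libraries, so this count only describes them. PAXINDRAFT_158079 averaged 16.5 ± 7.42 CPM with K-vermiculite, against 3.00 ± 0.806 CPM with muscovite, 2.99 ± 1.18 CPM with phlogopite and 5.42 ± 1.80 CPM on complete medium (SD, n = 5 each). The log2 fold changes were 2.46 (SE of 0.32, edgeR adjusted p 4.29e-06) against muscovite, 2.47 (SE of 0.32, edgeR adjusted p 1.85e-06) against phlogopite and 1.62 (SE of 0.31, edgeR adjusted p 0.00013) against complete medium. PAXINDRAFT_172063 averaged 29.7 ± 7.57 CPM with K-vermiculite, against 9.07 ± 1.14, 9.11 ± 2.36 and 12.3 ± 1.78 CPM in the same 3 groups, with log2 fold changes of 1.71 (SE of 0.21, edgeR adjusted p 1.28e-06), 1.71 (SE of 0.21, edgeR adjusted p 5.69e-07) and 1.28 (SE of 0.20, edgeR adjusted p 1.58e-05). PAXINDRAFT_152508 averaged 7843 ± 714 CPM with K-vermiculite, against 4831 ± 238, 4657 ± 939.8 and 3622 ± 340.4 CPM, with log2 fold changes of 0.70 (SE of 0.12, edgeR adjusted p 3.56e-05), 0.75 (SE of 0.12, edgeR adjusted p 7.06e-06) and 1.11 (SE of 0.12, edgeR adjusted p 1.13e-08). Against complete medium the gap was narrower for the other 2 higher genes. PAXINDRAFT_77684 averaged 181 ± 41.8 CPM with K-vermiculite, against 73.8 ± 13.2, 72.9 ± 18.9 and 135 ± 20.1 CPM, with log2 fold changes of 1.29 (SE of 0.18, edgeR adjusted p 6.47e-06), 1.31 (SE of 0.18, edgeR adjusted p 2.63e-06) and 0.42 (SE of 0.17, edgeR adjusted p 0.044). PAXINDRAFT_69019 averaged 1689 ± 319 CPM with K-vermiculite, against 926 ± 222, 782 ± 99.1 and 1326 ± 170.1 CPM, with log2 fold changes of 0.87 (SE of 0.14, edgeR adjusted p 4.03e-05), 1.11 (SE of 0.15, edgeR adjusted p 7.52e-07) and 0.35 (SE of 0.14, edgeR adjusted p 0.0439). On the lower side, PAXINDRAFT_11534 averaged 4.07 ± 0.663 CPM with K-vermiculite, against 24.1 ± 6.61, 24.4 ± 3.02 and 11.4 ± 2.84 CPM, with log2 fold changes of -2.57 (SE of 0.20, edgeR adjusted p 2.05e-09), -2.58 (SE of 0.20, edgeR adjusted p 4.73e-10) and -1.50 (SE of 0.20, edgeR adjusted p 1.23e-06). In these comparisons 39.1% of all tested genes were called against muscovite and 50.4% against phlogopite. These comparisons share the K-vermiculite libraries with each other and with the comparison to K-depleted medium.

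PAXINDRAFT_68958 and PAXINDRAFT_180362 were the named genes called against K-depleted medium that were not called against muscovite. For PAXINDRAFT_68958 the mean with K-vermiculite was 25943 ± 2979 CPM, against 26892 ± 5395 CPM with muscovite (SD, n = 5 each; log2 fold change -0.05 (SE of 0.14, edgeR adjusted p 0.798)), and it was higher than with phlogopite, at 17194 ± 2172 CPM (log2 fold change 0.59 (SE of 0.14, edgeR adjusted p 0.000849)), and than on complete medium, at 8815 ± 1649 CPM (log2 fold change 1.56 (SE of 0.14, edgeR adjusted p 8.05e-10)). PAXINDRAFT_180362 was called neither against muscovite (1.46 (SE of 0.83, edgeR adjusted p 0.174)) nor against phlogopite (1.27 (SE of 0.82, edgeR adjusted p 0.208)) nor against complete medium (1.25 (SE of 0.82, edgeR adjusted p 0.212)).

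In the reference, the spans of PAXINDRAFT_104146, PAXINDRAFT_142038, PAXINDRAFT_175161 and PAXINDRAFT_103396 overlap that of another gene, so reads of those neighbours may enter their counts.

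The 2 genes with symbols follow a convention in which nps stands for nonribosomal peptide synthetases and pks for polyketide synthases, enzyme families that build secondary metabolites in fungi. The gene nps2 had 80.0, 89.1, 88.4, 98.7 and 98.3 CPM with K-vermiculite, against 109, 104, 103, 126 and 123 CPM on K-depleted medium. It fell 1.24-fold (edgeR log2 fold change -0.32 with SE 0.07 and adjusted p 0.000876), with the highest K-vermiculite value below the lowest K-depleted one. The gene pks3 had 48.4, 48.7, 42.2, 45.9 and 54.1 CPM with K-vermiculite, against 42.9, 28.1, 43.7, 15.1 and 48.4 CPM on K-depleted medium. Its groups overlapped and it was not called (edgeR log2 fold change 0.42 with SE 0.46 and adjusted p 0.473), with K-depleted replicate 4 the lowest.

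Some genes with wide changes lay next to each other in the reference. The reference names no scaffold, so genes at the ends of different scaffolds may be counted as neighbours. In the order of genes of the RefSeq table, 29 of the 261 genes at least 2-fold lower (11.1%) had an adjacent gene that was also at least 2-fold lower, where 414 of the 12744 tested genes (3.25%) had such a neighbour. For the 207 genes at least 2-fold higher the count was 30 (14.5%), where 308 of the tested genes (2.42%) had a neighbour at least 2-fold higher. These shares are a description and were not tested, and reads shared by near-identical adjacent copies could contribute, since the treatment of such reads is not given in the sources used here. Pairs of adjacent genes made up 12 higher and 13 lower groups, and 2 higher runs and 1 lower run held 3 genes. No run was longer. The runs were singled out after their values were seen.

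One higher run was PAXINDRAFT_162912, PAXINDRAFT_76416 and PAXINDRAFT_76742. PAXINDRAFT_76416 had 27.9, 47.6, 34.9, 67.2 and 34.2 CPM with K-vermiculite, against 14.05, 12.3, 16.3, 9.41 and 12.8 CPM on K-depleted medium (edgeR log2 fold change 1.70 with SE 0.22 and adjusted p 2.88e-06). PAXINDRAFT_162912 had 60.1, 72.5, 63.8, 117 and 76.2 CPM with K-vermiculite, against 34.5, 33.2, 36.5, 29.9 and 31.3 CPM on K-depleted medium (edgeR log2 fold change 1.24 with SE 0.13 and adjusted p 8.84e-08). PAXINDRAFT_76742 had 66.7, 79.4, 75.1, 131 and 69.9 CPM with K-vermiculite, against 38.3, 41.3, 41.6, 25.1 and 34.8 CPM on K-depleted medium (edgeR log2 fold change 1.22 with SE 0.20 and adjusted p 3.31e-05). In all 3 genes K-vermiculite replicate 4 was the highest. Their levels with K-vermiculite were lower than on complete medium, where they averaged 101 ± 9.42, 202 ± 41.6 and 156 ± 26.9 CPM in the order of the run (SD, n = 5 each), with log2 fold changes of -0.38 (SE of 0.13, edgeR adjusted p 0.0176), -2.25 (SE of 0.22, edgeR adjusted p 2.17e-08) and -0.88 (SE of 0.19, edgeR adjusted p 0.000544).

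The lower run was PAXINDRAFT_17462, PAXINDRAFT_102246 and PAXINDRAFT_102247. PAXINDRAFT_102246 had 81.7, 65.8, 74.3, 58.6 and 72.3 CPM with K-vermiculite, against 200.0, 185, 201, 194 and 160.1 CPM on K-depleted medium (edgeR log2 fold change -1.41 with SE 0.16 and adjusted p 3.79e-07). PAXINDRAFT_102247 had 7.42, 5.03, 6.81, 4.63 and 5.16 CPM with K-vermiculite, against 15.2, 13.8, 15.0, 15.2 and 16.0 CPM on K-depleted medium (edgeR log2 fold change -1.37 with SE 0.12 and adjusted p 4.71e-10). PAXINDRAFT_17462 averaged 1.41 ± 0.553 CPM with K-vermiculite and 4.77 ± 0.970 CPM on K-depleted medium (SD, n = 5 each; edgeR log2 fold change -1.77 with SE 0.24 and adjusted p 1.91e-06). Groups did not overlap for any of the 3 genes, as for 220 of all 261 genes at least 2-fold lower (84.3%).

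The other higher run joined PAXINDRAFT_180362 to PAXINDRAFT_99026 and PAXINDRAFT_99027. PAXINDRAFT_99026 had 58.2, 53.3, 51.5, 71.6 and 92.5 CPM with K-vermiculite, against 16.6, 9.71, 20.2, 3.06 and 41.3 CPM on K-depleted medium (edgeR log2 fold change 1.84 with SE 0.74 and adjusted p 0.0491). K-depleted replicate 4 was the lowest and replicate 5 the highest, as for PAXINDRAFT_180362. Replicate 4 was also the lowest with muscovite and with phlogopite, at 0.117 and 0.0961 CPM for PAXINDRAFT_180362. For PAXINDRAFT_99026 these values were 1.99 and 4.035 CPM, and cultures on complete medium ran from 5.38 to 76.7 CPM. Its call was lost without any 1 of the K-vermiculite libraries, without any of K-depleted replicates 1 to 4 and without the filter on low counts, at adjusted p values of 0.0542 to 0.102. PAXINDRAFT_99027 had 98.6, 118, 106, 118 and 148 CPM with K-vermiculite, against 58.0, 54.0, 49.0, 55.4 and 70.6 CPM on K-depleted medium (edgeR log2 fold change 1.04 with SE 0.15 and adjusted p 9.99e-06).

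**Figure D5:**
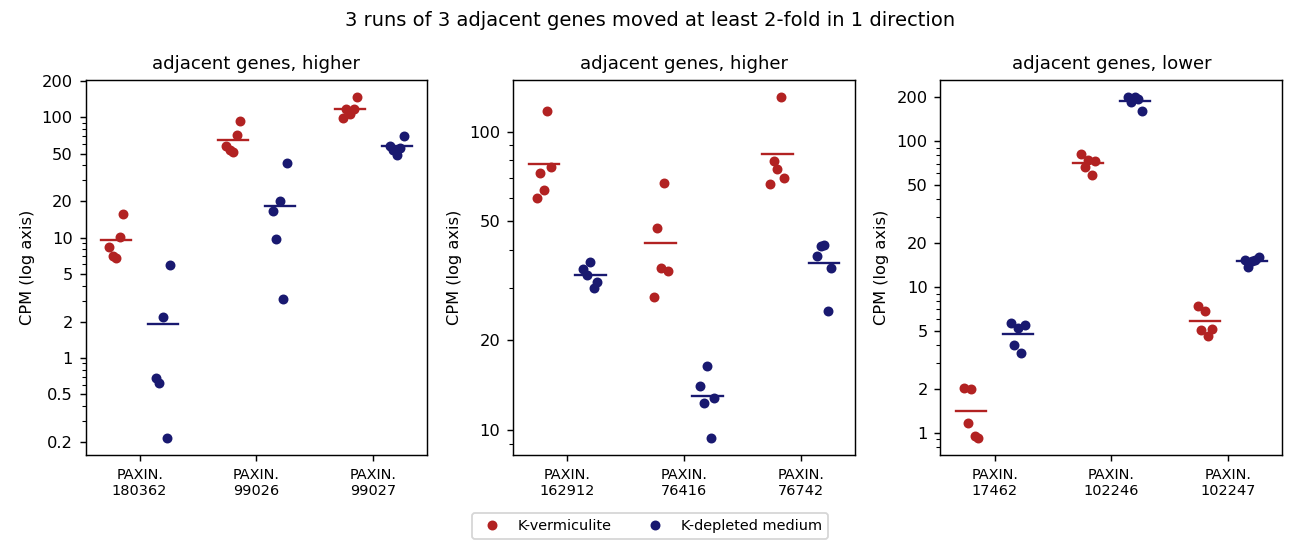
Level in CPM (vertical log axes) of the genes in the 3 runs of 3 adjacent genes, in their order in the reference; each point is 1 culture, K-vermiculite left and K-depleted medium right of each gene, and the line is the mean of 5. The K-depleted values of PAXINDRAFT_180362 and PAXINDRAFT_99026 spread over a wider range of the log axis than those of the other 7 genes.

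Whole-library measures differed little. The 10 most abundant genes by mean CPM across the series held 12.5%, 10.6%, 10.1%, 8.76% and 8.70% of counts with K-vermiculite, against 9.51%, 8.41%, 7.78%, 6.48% and 7.09% on K-depleted medium. The groups overlapped, and the difference of 2.27 percentage points had an exact two-sided permutation p of 0.0317. It missed the threshold without any one of K-vermiculite replicates 1 to 3 or K-depleted replicates 3 to 5, where the exact p ran from 0.0556 to 0.0635. Genes with at least 1 CPM numbered 11995 to 12022 in K-vermiculite libraries and 11949 to 11980 in K-depleted libraries, a mean difference of 42.4 genes (exact two-sided permutation p 0.00794, the smallest that 5 against 5 allows). At 5 CPM the difference was 10.4 genes (exact p 0.476).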

How the data were processed

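Per the labels' protocols, libraries were made with the TruSeq Stranded mRNA kit, and the submitters' processing notes name bcl2fastq 2.19, STAR 2.5.2b and HTSeq. The sources used here give neither the genome build nor the strand setting nor the handling of multiply mapped reads. The authors deposited whole-number counts for each gene and culture, and all 25 columns were used. Replicates differed by more than counting noise (chi-square per degree of freedom 14.9 to 91.9).

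The analysis used edgeR 4.0.16 in R 4.3.3. filterByExpr (minimum count 10, minimum total count 15) kept 12744 genes holding 99.995% of counts. One model, with 1 coefficient for each of the 5 groups, was fitted to the 25 libraries (TMM, estimateDisp, robust glmQLFit), each contrast was tested with glmQLFTest, and p-values were adjusted by the Benjamini-Hochberg method within each contrast over all tested genes. Standard errors were taken as the absolute log2 fold change over the root of F. The scripts were tested on simulated data. DESeq2 1.42.0, limma-voom (limma 3.58.1), other scalings and filters, the 2 groups alone, a replicate block and leaving out each library were the alternatives. The labels state biological replicates and name no batch.

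Genes were named by rule: from the called genes that averaged 5 CPM or more over the 10 libraries with groups that did not overlap, the 8 highest and 8 lowest log2 fold changes and the 4 largest gains and 4 largest losses of mean CPM, plus nps2 and pks3. The comparison, the rules and the lists were chosen with earlier results of these data known. The RefSeq table (assembly v1.0 of this strain) matched 18030 IDs by locus tag and 2 by symbol, and served only for symbols and for gene order; its rows name no scaffold, so a stretch was ended where a start position was lower than the one before. It holds no sequences, and lists planned from protein and promoter sequences were not run.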

Additional observations from a re-analysis of the deposited data

Results flagged for a closer look

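The check covered 39 measures: 5 whole-library measures and 34 genes, the 26 named by rule and the other genes of the runs of adjacent genes. Each was searched in both groups of 5 for 1 culture far from the other 4, relative to the range of the group. Of 78 groups, 4 had such a culture, and chance alone gives about 1 in 20. PAXINDRAFT_162912 stood at 117 CPM in K-vermiculite replicate 4, where the other K-vermiculite cultures had 60.1 to 76.2 CPM. Its neighbour PAXINDRAFT_76742 was at 131 CPM in the same culture, where the others had 66.7 to 79.4 CPM. PAXINDRAFT_103583 was at 1565 CPM in K-depleted replicate 5, against 737 to 858 CPM in the other K-depleted cultures. PAXINDRAFT_169338 was at 645 CPM in K-depleted replicate 4, against 342 to 392 CPM in the others.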

How the results depend on the processing

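The count of 5893 called genes ran from 5338 to 5673 when 1 library was left out and from 5136 to 6049 under the other alternatives, and 101 threshold-test genes became 74 to 102 when 1 library was left out (15 to 30 higher and 54 to 72 lower). The count of at least 2-fold genes was 407 to 505 without 1 library and 308 when only genes averaging at least 5 CPM were tested, an alternative that leaves fewer genes to test. The threshold test gave 64 genes with limma-voom, and the cause was not tested. The calls against muscovite (4403 to 4762), phlogopite (5916 to 6327) and complete medium (6177 to 6567) stayed within 1.5 times of 4984, 6427 and 6753 without 1 library. With library totals in place of TMM, 53.3% of calls were higher in place of 48.7%, against muscovite 58.5% in place of 48.4%, against phlogopite 58.6% in place of 49.8% and against complete medium 36.7% in place of 49.4%.

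For the named genes and the other genes of the runs, alternatives gave 610 values, all for K-vermiculite against K-depleted medium. Of these, 593 kept the direction and the side of the threshold, and 17 lost the call, all in PAXINDRAFT_180362 and PAXINDRAFT_99026. Calls of single genes against muscovite, phlogopite and complete medium were not rechecked under the alternatives. Most of these genes were chosen for large called changes in the same libraries, which favours keeping the call. The 593 values include 18 of pks3, which was not called. For the 10 genes with the highest mean, the difference in share was 1.68 to 2.68 percentage points without 1 library, and 1.23 points for the top 100 genes (exact permutation p 0.238). The difference of 42.4 detected genes was 38.5 to 46.2 without 1 library and 10.4 at 5 CPM.

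The labels name no link between same-numbered K-vermiculite and K-depleted cultures. Their deviations from the group means correlated at 0.0137, 0.0654, 0.183, -0.0841 and 0.131, and only numbers 3 and 5 correlated best with their own. The gene pks3 was lowest in number 4 on K-depleted medium, with muscovite and with phlogopite (15.1, 12.5 and 14.8 CPM). It was not lowest there with K-vermiculite or on complete medium. Whether same-numbered cultures shared a batch was not tested. With the replicate block 6049 genes were called, 464 of them at least 2-fold, and 103 passed the threshold test. The block left the differences at 2.27 percentage points and 42.4 genes, each with an exact sign-flip permutation p of 0.0625, the smallest 5 pairs allow.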
